A study of Mus musculus with 3 samples.

Results

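The genes described here encode the machinery that divides and joins mitochondria around the fission GTPase Drp1. They are 10 of the 46316 gene symbols in the deposited tables and were chosen by name: the Drp1 adaptors Fis1, Mff, Mief1 and Mief2, the inner membrane fission factor Mtfp1, the fusion GTPases Mfn1, Mfn2 and Opa1, and Oma1 and Yme1l1, the proteases that cut Opa1. For each gene the transcript row with the highest count over the libraries was used. All 10 were among the 13382 genes kept at a mean CPM, a count scaled to a fixed library total, of at least 1.

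RNA was measured 4 days into myogenic differentiation in C2C12, an immortal line of mouse muscle precursors that form multinucleated fibres in culture. The groups were Drp1 knockout cells transiently expressing FLAG-Drp1 (rescue), Drp1 knockout cells (KO) and wild-type cells (WT). All cells were of the same line and had the same differentiation treatment, and how the knockout was made and whether it is 1 clone were not given in the sources used here. There was 1 library per group, so no difference could be checked against replicates and no test across samples was possible. The values describe these libraries, and the intervals are 95% intervals for counting error only.

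Mitochondria divide when Drp1 is recruited from the cytosol by adaptors on the outer membrane, assembles into rings and constricts the organelle. They fuse in steps, the outer membranes through the mitofusins Mfn1 and Mfn2 and the inner membranes through Opa1, which exists in long forms and in short forms cut by Oma1 and Yme1l1. In muscle this balance shapes the mitochondrial network that lies between and under the contractile filaments. The Drp1 RNA itself, from Dnm1l, had 1481 counts in rescue, 1284 in KO and 1823 in WT, so the library labelled KO still held most of the WT level of this RNA. An RNA count does not show whether protein is made, and the sources used here do not give whether FLAG-Drp1 reads were counted in these rows.

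The libraries held 13925296 gene counts in rescue, 13790417 in KO and 13894114 in WT. All 10 markers listed for differentiated muscle were detected in every library, with summed counts of 250838 in rescue, 200545 in KO and 196054 in WT. Most of these counts came from Myh3 and Acta1, with 62250 and 70182 in KO and 50576 and 61533 in WT. In KO, 7 of the 10 lay below WT and 3 above, with a median log2 ratio of -0.35. Of those below, 4 (Myh8, Ckm, Actn2 and Mb) were at least 1.5-fold lower, beside 10.4% of all kept genes. Des, Tnnt3 and Tnni1 lay below at log2 ratios of -0.47, -0.22 and -0.08. Myog, Myh3 and Acta1 lay above WT at log2 ratios of 0.47, 0.33 and 0.22. In rescue all 10 lay above KO, 6 of them by at least 1.5-fold, beside 3.85% of all kept genes. The part of muscle differentiation in the results below was not tested. The 6 leukocyte markers summed to 42, 58 and 23 counts in rescue, KO and WT, nearly all from Cd68 (42, 55 and 22). The 6 endothelial markers summed to 28, 38 and 31, nearly all from Vwf (17, 30 and 13) and Tek (11, 7 and 16). Ptprc and Pecam1 were at 0 in each library. The 6 adipocyte markers summed to 168, 152 and 159 counts, nearly all from Pparg and with Adipoq at 0, and the 6 epithelial markers to 115, 63 and 215, mostly from Krt19 and with Epcam at 1, 0 and 0. In bulk RNA, fewer cells of a kind and less RNA per cell cannot be told apart.

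Promoters are shown for Fis1, Opa1 and Mtfp1, the members with the largest log2 ratios of either sign against WT. Each is given as the 250 bases before the annotated start, in which 6 short motifs were searched. The sequences are those of RefSeq on build GRCm38.p6, an older build than the GRCm39 of the counts, and all 10 genes had at least 1 entry there (14 promoters in all). Fis1 had 2 entries, and the one that starts farther upstream is shown, since the other, at chr5:136961827-136962076 on the plus strand, held none of the motifs. Capitals mark a match on either strand.
Fis1, chr5:136953025-136953274, plus strand: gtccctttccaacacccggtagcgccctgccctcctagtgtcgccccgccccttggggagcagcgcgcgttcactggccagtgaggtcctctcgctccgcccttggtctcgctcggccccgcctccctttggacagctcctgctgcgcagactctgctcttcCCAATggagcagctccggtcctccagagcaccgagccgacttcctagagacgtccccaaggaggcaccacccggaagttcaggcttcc
Opa1, chr16:29579084-29579333, plus strand: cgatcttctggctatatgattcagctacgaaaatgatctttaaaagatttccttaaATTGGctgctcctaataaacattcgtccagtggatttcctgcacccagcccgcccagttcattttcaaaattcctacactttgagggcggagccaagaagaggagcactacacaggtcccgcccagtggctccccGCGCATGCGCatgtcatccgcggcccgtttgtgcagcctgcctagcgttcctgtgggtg
Mtfp1, chr11:4095432-4095681, minus strand: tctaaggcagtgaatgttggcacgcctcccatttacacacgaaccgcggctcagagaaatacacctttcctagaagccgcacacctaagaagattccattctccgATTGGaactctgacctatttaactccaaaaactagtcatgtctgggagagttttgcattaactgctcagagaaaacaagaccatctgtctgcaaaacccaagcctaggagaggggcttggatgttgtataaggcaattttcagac
Each of these 3 windows held the CCAAT box (letters CCAAT, or ATTGG on the other strand). For Fis1 this follows from the choice of window, since the entry left out held no match. The CCAAT box was present in 7 of the 14 member promoters and in 35.7% of the 12686 promoters of kept genes. The Opa1 window also held the palindromic motif of NRF1, a factor of mitochondrial biogenesis (GCGCA, any base, then GCGC), which was in 7.98% of promoters of kept genes and, among the members, in Oma1 as well. The motif of ATF4 (TGATGNAAN), a factor of the amino acid stress response, was in none of the member windows and in 2.0% of promoters of kept genes. Those of the estrogen-related receptors (TCAAGGTCA), MEF2 (CTAAAAATA) and the muscle E-box (CAGCTG) were also in none of them, and in 0.260%, 0.292% and 12.4% of promoters of kept genes. A match is a run of letters and not a shown binding site, and a missing match concerns this window alone.

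Fis1 and Mff were the most abundant of these RNAs and Mtfp1 and Oma1 the rarest, on a scale of counts per kilobase of the counted row (TPM, brought to the same total in each library over 1 row per gene). Fis1, a tail-anchored outer membrane protein, stood highest in every library, at 191 TPM in rescue, 154 in KO and 253 in WT. Mff, the main Drp1 receptor in many mammalian cells, came next at 103, 103 and 109 TPM, followed by Yme1l1 at 79.2, 78.9 and 71.9 TPM. Mfn2 had 52.3, 60.5 and 59.6 TPM, Opa1 40.1, 47.0 and 32.1 TPM, and Mfn1 35.7, 43.1 and 34.4 TPM, in the same order of libraries. The counting intervals of Opa1 and Mfn1 overlapped in KO and in WT, where Mfn1 stood above Opa1, and did not overlap in rescue. Mief1 and Mief2, which encode the paralogous adaptors MiD51 and MiD49, lay between 24.9 and 33.5 TPM in the 3 libraries, with overlapping intervals in rescue and in WT but not in KO. Mtfp1 had 9.13 TPM in rescue, 10.3 in KO and 4.96 in WT. TPM orders genes within a library. Its scaling between libraries depends on the lengths of all counted rows, so the log2 ratios between libraries given next come from counts scaled by TMM (trimmed mean of M values) factors.

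The place of Oma1 in this order depended on the transcript row. Its highest row was a predicted transcript of 8773 bases, which gave 2.75 TPM in rescue, 3.23 in KO and 2.91 in WT. The curated row of 1866 bases had 133 counts beside 161 of the highest row in rescue, 141 beside 173 in KO and 141 beside 166 in WT. It gave 10.2, 11.8 and 11.1 TPM, above Mtfp1 at 8.72, 9.86 and 4.74 TPM on that scale. With curated rows, a choice added after the data were seen, Opa1 also stood above Mfn1 in WT (36.2 and 32.9 TPM), with overlapping intervals.

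**Figure D1:**
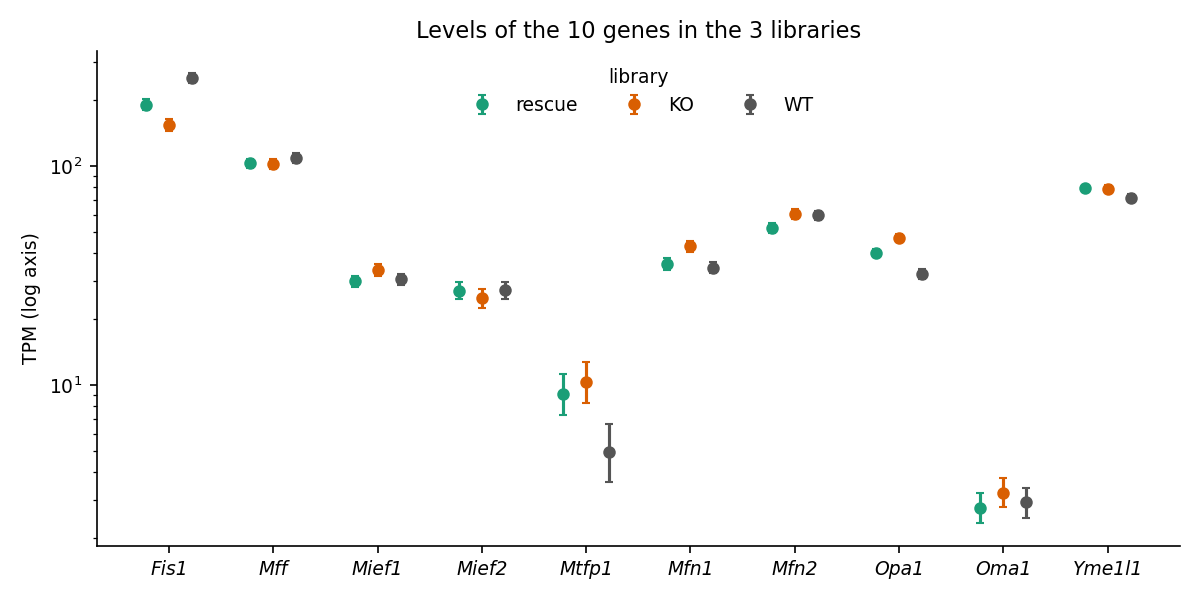
TPM of each gene (log axis) in the rescue, KO and WT libraries, 1 point per library, with 95% counting intervals as bars. Fis1 is highest in every library and lowest in KO among the libraries (154 TPM), Opa1 and Mtfp1 are lower in WT than in rescue and KO, and the other genes differ less across libraries.

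Against WT, the KO library had less Fis1 and more Opa1 and Mtfp1, with the other 7 genes within 1.20-fold of WT. Past 1.5-fold were 2 of the 10 genes, Mtfp1 higher and Fis1 lower, where 12.1% of all kept genes lay that far above WT and 10.4% that far below, 22.6% in all. The share of the 10 genes is thus near the background. No member reached 2-fold, as 9.42% of kept genes did, and 3 reached a ratio of 5 to 4 (with Opa1), as 45.2% of kept genes did. The median log2 ratio of the 10 was 0.07, beside 0.00064 for all kept genes, with 6 genes above 0 and 4 below. With the trend of ratios with transcript length taken off, described further on, the median was -0.04, with 4 genes above 0 and 6 below (Mief1 at -0.03 and Oma1 at -0.10), and Fis1 was no longer past 1.5-fold. The counting interval left out 0 for 5 genes: Fis1, Mff, Mfn1, Opa1 and Mtfp1.

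Among the outer membrane adaptors, Fis1 stood apart from the others. It had 1208 counts in rescue, 896 in KO and 1561 in WT, so KO was lowest and rescue lay between KO and WT. The log2 ratio of KO to WT was -0.78 (interval -0.90 to -0.66), a 1.71-fold lower value. Of all kept genes, 6.38% had a lower ratio. Rescue exceeded KO by 1.35-fold, a log2 ratio of 0.44 (interval 0.31 to 0.56). It stayed 1.26-fold under WT, a log2 ratio of -0.34 (interval -0.45 to -0.23). Both ratios that involve KO use the same KO library, so their opposite signs are not independent. All 3 transcript rows of Fis1 gave like ratios, from -0.79 to -0.78 for KO over WT and from 0.43 to 0.45 for rescue over KO.

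The other adaptors differed little between libraries. Mff had 1503 counts in rescue, 1374 in KO and 1547 in WT, with log2 ratios of -0.15 in KO against WT (interval -0.25 to -0.04) and 0.14 in rescue against KO (interval 0.03 to 0.24). Mief2 had 455, 384 and 444 counts, lowest in KO, with a log2 ratio of -0.18 in KO against WT (interval -0.38 to 0.02) and 0.25 in rescue against KO (interval 0.05 to 0.45). Mief1 had 1052, 1085 and 1047 counts, and its intervals held 0 in all 3 comparisons. The 3 adaptors that lay below WT in KO (Fis1, Mff and Mief2) lay above KO in rescue, in comparisons that share the KO library.

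Mtfp1, an inner membrane protein that promotes fission, was near 2-fold higher in KO and in rescue than in WT, at low counts. It had 85 counts in rescue, 88 in KO and 45 in WT, so rescue and KO were nearly equal and both above WT. The log2 ratio was 0.99 in KO against WT (1.98-fold, interval 0.46 to 1.54) and 0.94 in rescue against WT (1.92-fold, interval 0.41 to 1.51), and that of rescue against KO was -0.04 (interval -0.49 to 0.40). The 2 ratios against WT share the WT library, so their like signs are not independent. Genes at this level often differed as much: in its decile of mean expression 23.5% of genes were at least 1.5-fold higher in KO than in WT and 22.3% at least 1.5-fold lower. In the decile of Fis1 these shares were 6.20% and 5.61%.

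**Figure D2:**
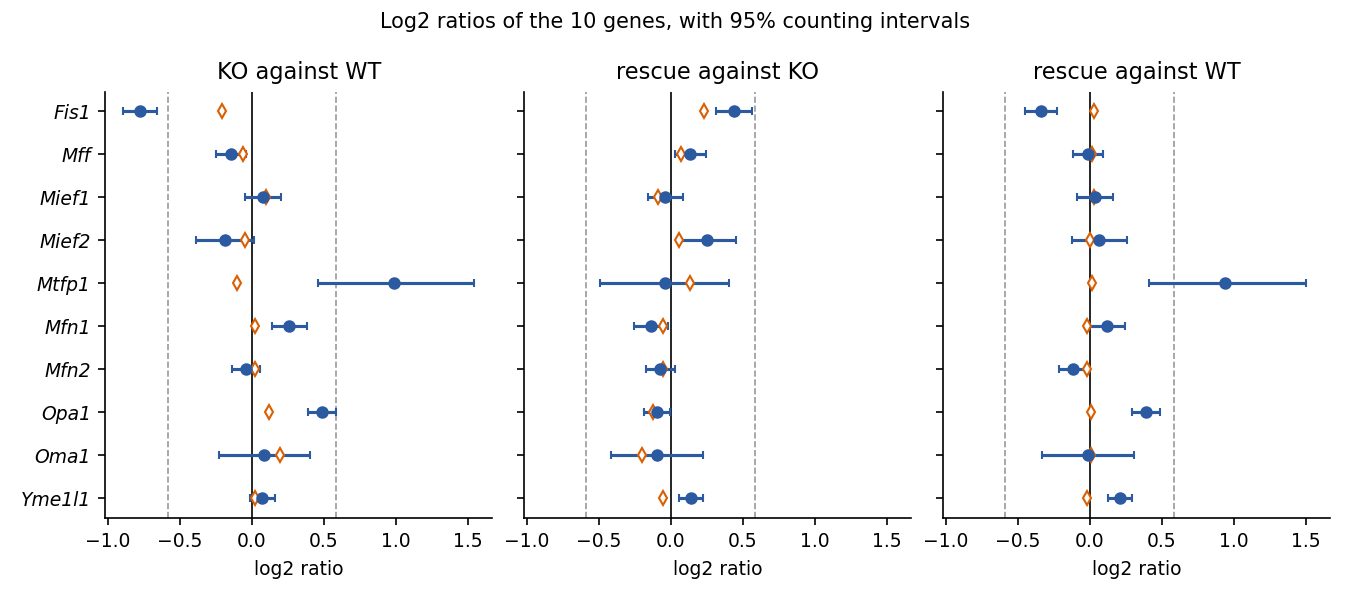
Log2 ratios (horizontal axis) of the 10 genes in KO against WT, rescue against KO and rescue against WT, filled points with 95% counting intervals. Open diamonds give the median of protein-coding genes in the same decile of transcript length, and dashed lines mark 1.5-fold; Fis1 lies below the line in KO against WT (-0.78) and Mtfp1 above it in both comparisons with WT (0.99 and 0.94).

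Of the fusion GTPases, Opa1 was higher in rescue and KO than in WT, and Mfn1 was slightly higher in KO than in WT. Opa1, the dynamin-like GTPase that fuses inner membranes and shapes cristae, had 1942 counts in rescue, 2081 in KO and 1514 in WT. Both rescue and KO were above WT, at log2 ratios of 0.39 (1.31-fold, interval 0.29 to 0.49) and 0.48 (1.40-fold, interval 0.39 to 0.58), which share the WT library and are not independent. Rescue was 1.07-fold below KO (log2 ratio -0.09, interval -0.18 to -0.0026). The 8 transcript rows of Opa1 had ratios from 0.48 to 0.49 in KO against WT, the shortest included.

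Mfn1 had 1079 counts in rescue, 1192 in KO and 1014 in WT, highest in KO. Its log2 ratio was 0.26 in KO against WT (1.20-fold, interval 0.14 to 0.38) and -0.14 in rescue against KO (interval -0.26 to -0.02). In rescue against WT it was 0.12, and the interval (-0.0026 to 0.25) held 0. Mfn2, which also tethers mitochondria to the endoplasmic reticulum, had 1561, 1651 and 1730 counts. Its interval held 0 in KO against WT (-0.04, interval -0.14 to 0.06), and rescue stood 1.08-fold under WT, a log2 ratio of -0.12 (interval -0.22 to -0.02).

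The proteases that cut Opa1 differed by at most 1.16-fold in any comparison. Yme1l1, an ATP-dependent protease of the inner membrane, had 2414 counts in rescue, 2203 in KO and 2134 in WT, highest in rescue. Its log2 ratio was 0.07 in KO against WT (interval -0.02 to 0.16), 0.14 in rescue against KO (interval 0.06 to 0.22) and 0.21 in rescue against WT (interval 0.13 to 0.30). Oma1, a protease activated by loss of membrane potential, had 161, 173 and 166 counts, and its interval in KO against WT ran from -0.23 to 0.40. A difference of Oma1 as large as that of Mfn1 (log2 ratio 0.26) would lie within that interval and was not detectable at this depth.

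Between rescue and KO no member was past 1.5-fold, beside 6.61% of all kept genes (3.85% higher and 2.76% lower), and none was past 2-fold, beside 1.88%. All members but Mtfp1 had a mean CPM of at least 10, and of all genes at that level only 1.57% were past 1.5-fold. Fis1 was the only one of the 10 past a ratio of 5 to 4, beside 20.2% of kept genes. The median of the 10 log2 ratios was -0.04, beside 0.0072 for all kept genes, and 0.06 with the length trend taken off. In rescue against WT, Mtfp1 was the only one past 1.5-fold, beside 10.5% of kept genes higher and 7.94% lower (18.5% in all). No member was past 2-fold, beside 7.64%, and Opa1 and Fis1 joined Mtfp1 past a ratio of 5 to 4, beside 38.9%. The median there was 0.05, beside 0.01 for all kept genes. Rescue thus lay between KO and WT for Opa1, Mtfp1 and Fis1, and nearer to KO for Opa1 and Mtfp1. For Mtfp1 the counting interval of rescue against KO held 0, so its side of KO is not fixed. With the length trend taken off, Opa1 in rescue lay above KO (log2 ratio 0.05) and no longer between KO and WT. For Fis1 the log2 ratio of rescue was 0.44 against KO and -0.34 against WT. With the length trend taken off these were 0.21 and -0.36.

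Transcript length moved with these ratios over all genes. Kept protein-coding genes were split into deciles by row length. The 1183 genes with the shortest rows (median 976 bases) had medians of -0.21 for KO over WT and 0.23 for rescue over KO on the log2 scale. For the 1183 genes with the longest rows (median 9899 bases) these were 0.20 and -0.20. The cause of this trend was not tested. The row of Fis1, of 950 bases, was in the shortest decile, in which 16.4% of genes were at least 1.5-fold lower in KO than in WT and 9.81% had a ratio below that of Fis1. With the length trend taken off, the log2 ratio of Fis1 was -0.57 in KO against WT, just short of 1.5-fold, and 0.21 in rescue against KO. Opa1, whose row of 7251 bases was in the ninth decile (median 0.12), had 0.35 and 0.05. The row of Mtfp1, of 1396 bases, was short and Mtfp1 lay opposite to its decile (median -0.10), with 1.14 in KO against WT once the trend was taken off. In rescue against WT the decile medians lay between -0.02 and 0.03, and Fis1, Opa1 and Mtfp1 had -0.36, 0.39 and 0.93 with the trend taken off.

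**Figure D3:**
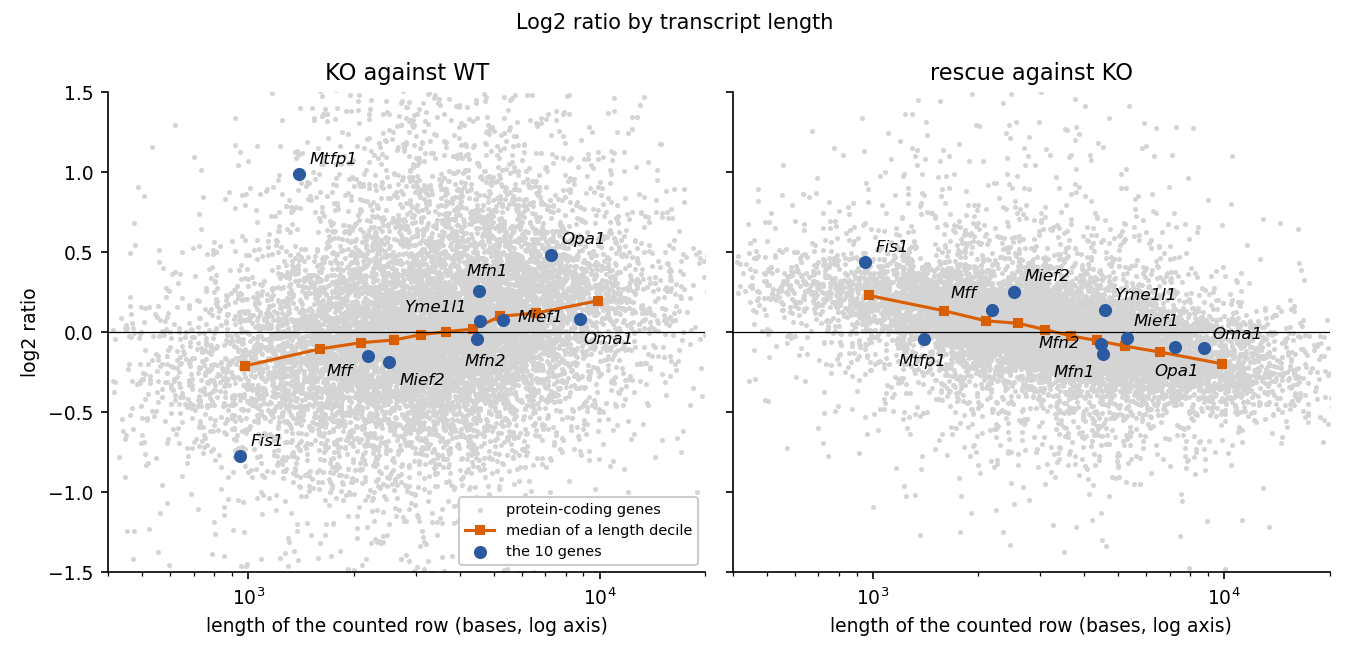
Log2 ratio against the length of the counted row (log axis) for protein-coding genes (grey), medians of the 10 length deciles (squares) and the 10 genes (blue), for KO over WT and rescue over KO. The decile medians run from -0.21 to 0.20 in KO against WT and from 0.23 to -0.20 for rescue over KO, and Mtfp1, Fis1 and Opa1 lie farthest from them in KO against WT; 609 and 150 of 11830 genes lie outside the plotted ranges.

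Ratios between genes within a library do not depend on the scaling between libraries. Fis1 had 0.804 counts per count of Mff in rescue, 0.652 in KO and 1.01 in WT. The Fis1 to Mff ratio in KO was 0.646 times that in WT (interval 0.578 to 0.722), and in rescue 1.23 times that in KO (interval 1.10 to 1.38). Opa1 outnumbered Mfn2 in rescue (1.24 counts per count) and KO (1.26) but not in WT (0.875), and the ratio in KO was 1.44 times that in WT (interval 1.31 to 1.58). Mfn1 had 0.691 counts per count of Mfn2 in rescue, 0.722 in KO and 0.586 in WT, and the ratio in KO was 1.23 times that in WT (interval 1.10 to 1.37). Mief1 had 2.31, 2.83 and 2.36 counts per count of Mief2, highest in KO, where it was 1.20 times that of WT (interval 1.02 to 1.41). Oma1 had 0.0667, 0.0785 and 0.0778 counts per count of Yme1l1, and the intervals of its 3 changes all held 1. Mfn1 and Mfn2 have rows of like length (4531 and 4470 bases). The genes of each other pair differ in length, as Fis1 and Mff (950 and 2189 bases) and Mief1 and Mief2 (5299 and 2522 bases). The log2 ratios of KO to WT were 0.08 for Mief1 and -0.18 for Mief2. With the length trend taken off they were -0.03 and -0.11. The part of length in the changes of these pair ratios was not tested.

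**Figure D4:**
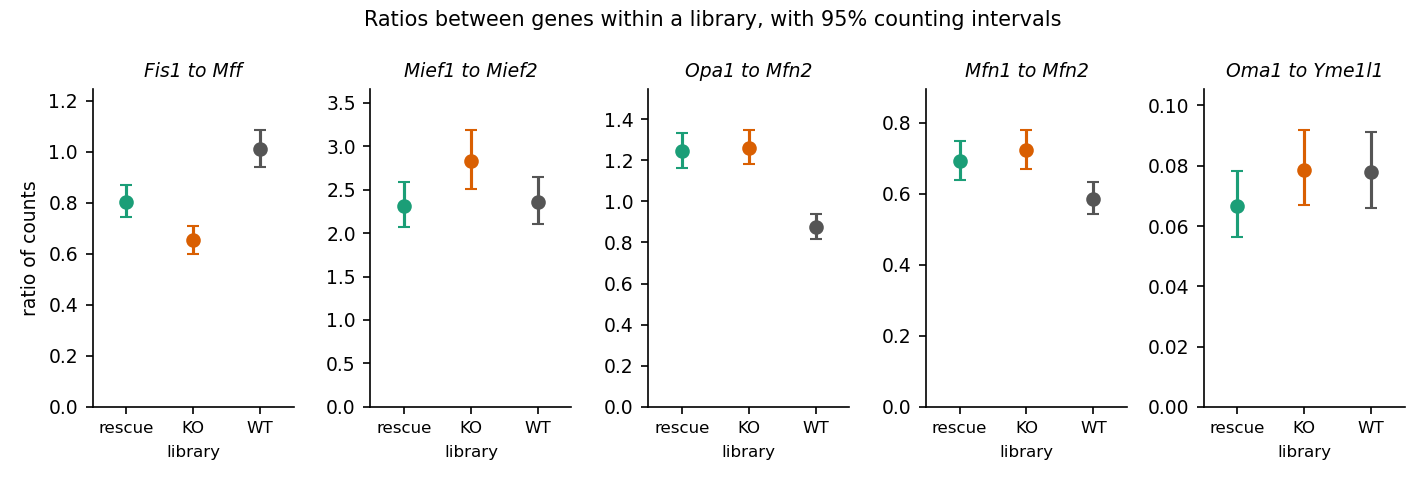
Ratio of the counts of the first gene to those of the second within the rescue, KO and WT libraries, with 95% counting intervals; each panel has its own axis from 0. Fis1 to Mff is lowest in KO (0.652), Opa1 to Mfn2 and Mfn1 to Mfn2 are lowest in WT (0.875 and 0.586), and the intervals of Oma1 to Yme1l1 overlap in all libraries.

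Transcript rows of a gene share most of their reads, and in most genes they had like ratios. Shares and steps between rows, here and for Mff, come from row counts and take the reads of the shorter row as part of the longer. Whether the rows nest in this way was not tested. Oma1 had the widest range of row ratios in KO against WT, from 0.02 to 0.23, the highest from a predicted transcript of 8413 bases with 139 counts in rescue, 149 in KO and 129 in WT. The lowest row of Mfn2, a predicted transcript of 2633 bases, held 52.4% of the reads of the highest in rescue (interval 49.9% to 54.9%), 56.2% in KO (interval 53.8% to 58.6%) and 51.4% in WT (interval 49.1% to 53.8%), highest in KO with intervals that overlap at their ends. Its log2 ratio in KO against WT was 0.09, beside -0.04 for the highest row. The lowest row of Opa1, of 3565 bases, held 58.8%, 60.4% and 60.1% of the reads of its highest, with overlapping intervals.

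Mff, whose RNA is spliced into many forms, had a larger gap in KO between the counts of its highest and its shortest row. The count of the row of 1650 bases fell short of that of the highest row by 31 of 1503 in rescue, 63 of 1374 in KO and 29 of 1547 in WT. These are 2.06% (interval 1.41% to 2.91%), 4.59% (interval 3.54% to 5.83%) and 1.87% (interval 1.26% to 2.68%). Along 4 rows of rising length, chosen after the rows were seen, the step from 1650 to 1740 bases added 22, 24 and 16 reads in rescue, KO and WT. The step to the row of 1899 bases added 6, 16 and 7 reads. The last step, of 287 bases to a predicted transcript of 2186 bases, added 3, 23 and 6 reads. The sources used here do not give the strand setting of the counting, and C430014B12Rik, annotated on the opposite strand over the start of Mff, had 2, 3 and 3 counts. Gm28941, annotated in an intron of Mff on the same strand, had no counts given. The part of either locus in these reads was not tested.

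Other genes of mitochondrial dynamics were also counted by list. Of 53 genes in 6 lists, 50 were kept, and 1 of the 50 lay at least 1.5-fold above WT in KO and 2 that far below, beside the 12.1% and 10.4% of all kept genes. These were Pim1, a kinase linked to Drp1 phosphorylation, with 744 counts in rescue, 803 in KO and 431 in WT, and on the lower side Mtfr2, a fission regulator, with 50, 33 and 67 counts, and Micos10, a core subunit of the cristae junction complex MICOS, with 984, 731 and 1133 counts. In rescue against KO, 1 was higher (Mtfr2) and 1 lower (Miga1, which encodes an outer membrane fusion protein, with 12, 23 and 16 counts), beside 3.85% and 2.76% of all kept genes. The counting intervals of both held 0, from -0.06 to 1.29 for Mtfr2 and from -2.07 to 0.13 for Miga1. The medians of the 50 were -0.08 for KO over WT and 0.07 for rescue over KO. Among all genes with a mean CPM of at least 10, 14.5% were past 1.5-fold in KO against WT and 1.57% between rescue and KO.

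Among the fission factors, 8 of 9 were kept, with 4 above and 4 below WT in KO. Their range ran from Mtfr2 (log2 ratio -0.99, interval -1.64 to -0.37) to Dnm2, dynamin 2 (0.40, interval 0.31 to 0.49), and Dnm1l itself was at -0.48 (interval -0.58 to -0.38), as large a difference as that of Opa1 and the opposite way. Of the inner membrane partners, all 10 were kept, between Opa3 (-0.37) and Afg3l2 (0.32), a matrix-facing protease subunit. The 12 kept enzymes that modify Drp1 or the mitofusins ran from Mul1, a ubiquitin and SUMO ligase (-0.42), to Pim1 (0.92). The 4 kept outer membrane fusion partners ran from Msto1 (-0.39) to Miga1 (0.54, interval -0.43 to 1.57). In the MICOS list, of short rows (median 1341 bases), 9 of 11 lay below WT in KO and 10 of 11 above KO in rescue, with medians of -0.11 and 0.18. With the length trend taken off these medians were 0.05 and 0.07.

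**Figure D5:**
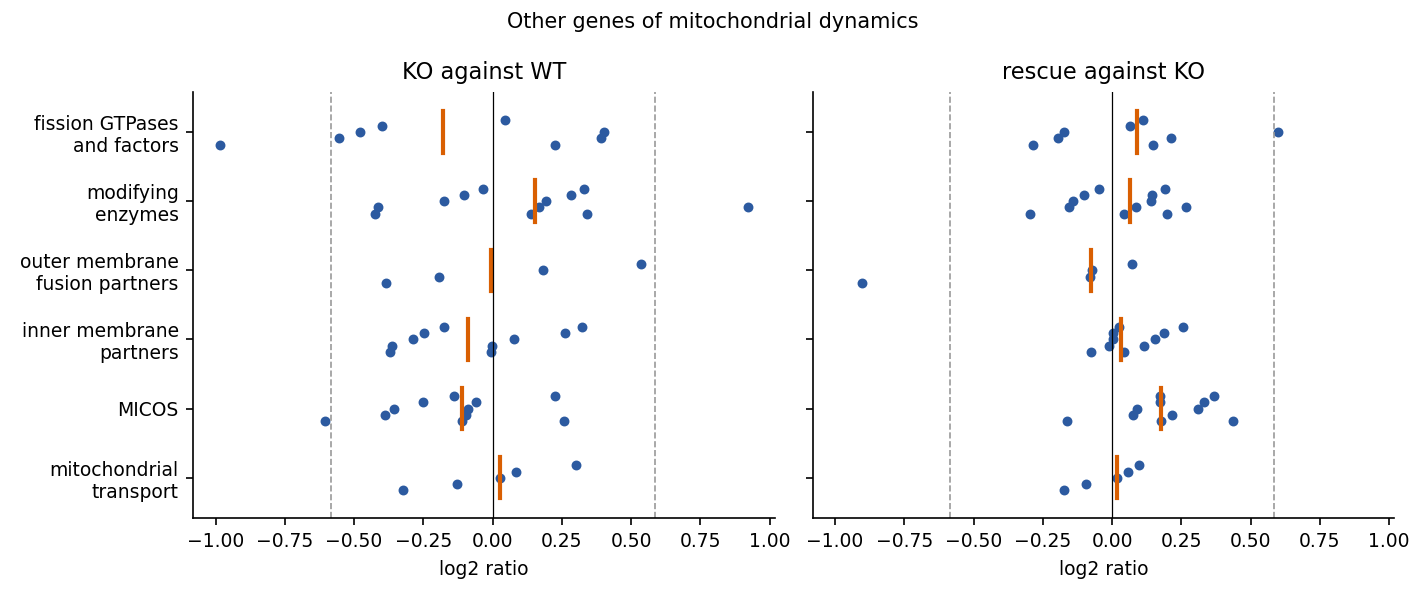
Log2 ratios of the 50 kept genes of 6 lists for KO over WT and for rescue over KO; each point is a gene, its height within a list has no meaning, bars are list medians and dashed lines mark 1.5-fold. All but 3 genes lie within 1.5-fold in KO against WT and all but 2 in rescue against KO.

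The genes most like Mtfp1, the member farthest from WT in KO, included Ubxn11, Efna2, Shmt2 and Psph, the nearest 4 of 11829 protein-coding genes by distance in the plane of log2 ratios of KO and of rescue against WT. Ubxn11 and Efna2, the nearest of all, had low counts. Ubxn11 had 25 in rescue, 26 in KO and 13 in WT, and Efna2, which encodes ephrin A2, had 58, 61 and 31. Shmt2 and Psph are enzymes of mitochondrial serine use and of serine synthesis, and a link of Mtfp1 to serine was not tested. Shmt2 had 3886 counts in rescue, 3944 in KO and 2036 in WT, and Psph 556, 563 and 291, so both were nearly 2-fold above WT in rescue and KO. Likeness over 3 libraries is weak: 41 genes lay within 0.1 log2 units of Mtfp1 in this plane.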

How the data were processed

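TRIzol was used to extract the RNA and a DNBSEQ-G400RS kit for the libraries, per the labels' protocols. HISAT2 2.2.1, featureCounts 2.0.0, cutadapt 1.9.1 and build GRCm39 are named, per the submitters' processing notes, and their settings were not given in the sources used here. The deposited tables held 139023 transcript rows, each with a whole-number read count that is not normalized, per the file headers. They also held an RPKM (a count scaled by row length and library total) and a TPM computed by the authors, per the file headers. Only counts were used, 1 row per gene, the first in the table among equal rows, and TPM was recomputed from those rows.

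Library scaling used TMM factors of edgeR 4.0.16 (R 4.3.3) over genes with a mean CPM of at least 1. Log2 ratios had 0.5 added to each count. Intervals are exact conditional or Clopper-Pearson 95% intervals from SciPy 1.17.1, and hold counting error alone: without molecular identifiers, reads may repeat a molecule. The ratio and interval code was tested on simulated data. Length trends were running medians over 501 genes. The members, lists and 1.5-fold limit were chosen with earlier results of these data known. The rule for named genes took every member, Dnm1l, the highest and lowest gene of each list, any gene past 1.5-fold, and 5 genes of like pattern, of which 1 is not reported here, and for the transport list these are given in the closing section. The sources used here do not say how reads matching several genes or transcripts were treated. Alternatives were DESeq2 1.42.0 size factors, total count and upper quartile scaling, other rows of a gene, the length trend taken off, 5 added counts, other folds and low-count limits.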

Additional observations from a re-analysis of the deposited data

How the results depend on the processing

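No paired analysis was possible because each group has 1 library and the labels carry no replicate numbers, and for the same reason no replicate could be left out. Of 270 log2 ratios of single members under 9 alternatives, 266 stayed within the counting interval of the reported value, and the other 4 belonged to Fis1 and Opa1 with the length trend taken off. That alternative left 1 member past 1.5-fold in KO against WT, in place of 2, and moved the median to -0.0436. It also turned the sign of the median in rescue against KO, from -0.04 to 0.0636. At 2-fold no member passed in either comparison with WT (0 in place of 2 for KO, 0 in place of 1 for rescue). At a ratio of 5 to 4 it was 1 in rescue against KO and 3 in rescue against WT. The cause of the length trend was not tested. The share of all genes past 1.5-fold in KO against WT was 41.9% without the low-count filter and 14.5% at a mean CPM of at least 10. These shares were 30.4% and 1.57% between rescue and KO, and 40.0% and 10.5% between rescue and WT. Mtfp1 and Oma1 are limited by depth.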

Other observations

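The genes that move mitochondria along microtubules went both ways. All 5 listed were kept, with medians of 0.03 for KO over WT and 0.02 for rescue over KO on the log2 scale. None was past 1.5-fold, beside 22.6% of all kept genes in KO against WT, 6.61% between rescue and KO and 18.5% in rescue against WT. At a mean CPM of at least 10 these shares were 14.5%, 1.57% and 10.5%. Kif5b, a kinesin heavy chain, was the highest in KO against WT, with 9358 counts in rescue, 9040 in KO and 7471 in WT (log2 ratio 0.30, interval 0.26 to 0.34). Trak1, the adaptor between kinesin and the mitochondrial GTPase Miro, was the lowest, with 1295, 1390 and 1770 counts (log2 ratio -0.32, interval -0.43 to -0.22). Its paralog Trak2 had 1519, 1509 and 1509 counts. Rhot1 and Rhot2, which encode the Miro proteins, had log2 ratios of 0.08 (interval -0.03 to 0.20) and -0.13 (interval -0.29 to 0.03) in KO against WT. In rescue against WT, the log2 ratios were -0.42 for Trak1 (interval -0.52 to -0.31), 0.36 for Kif5b (interval 0.31 to 0.40) and -0.30 for Rhot2 (interval -0.47 to -0.13).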
